A study of Mus musculus with 6 samples.

Results

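Integrins and cadherins are the main receptors by which cells hold on to matrix and to each other. Their genes were taken from a table of read counts of mouse hematopoietic stem and progenitor cells (HSPCs) transformed with the leukemia fusion oncogene MLL-AF9. The members were all genes of the table with an integrin α subunit, integrin β subunit or numbered cadherin symbol, which gave 49 of the 23337 genes: 18 α subunits, 8 β subunits and 23 cadherins. All 6 libraries came from mouse HSPCs carrying MLL-AF9, 3 from a pro-lymphoid culture (replicates 1, 5 and 6) and 3 from a pro-myeloid culture (replicates 2, 3 and 4). The labels name neither the cytokines nor any feeder cells, and give no strain, age, time in culture or separate animals. The spread between libraries may therefore be technical. Values of single libraries are always listed in the order of these replicate numbers.

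An integrin is a pair of 1 α and 1 β subunit, and the pair decides the ligand. The leukocyte β2 subunit pairs with αL, αM, αX or αD and binds intercellular adhesion molecules and complement fragments. The α4 subunit pairs with β1 or β7 and binds vascular and mucosal adhesion molecules and fibronectin, and helps to hold progenitors in the bone marrow. Classical cadherins bind the same cadherin on the next cell and are tied to actin by catenins, and blood cells express few of them.

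The libraries held 34972488 to 46724382 counts, and the members took 0.191% to 0.233% of each. The cultures lay apart on principal component 1, with 82.3% of the variance. Component 2, with 7.91%, set myeloid replicate 2 (52.9) apart from myeloid replicates 3 (-32.0) and 4 (-19.5). On the same component lymphoid replicate 1 stood at 19.6, and lymphoid replicates 5 and 6 at -17.2 and -3.79. All 12 markers of blood progenitors that were looked for, among them Ptprc, Spn and Cd34, had reads in both cultures, with summed levels of 2233 to 2526 CPM (counts scaled to library size with TMM factors) in pro-lymphoid and 2342 to 2552 CPM in pro-myeloid libraries. The sums hide differences in both directions, since 5 of the 12 were higher in pro-lymphoid culture, among them Flt3 (434 against 13.9 CPM) and Cd34, 5 lower, among them Meis1 and Hoxa9, and 2 not called. In these bulk samples, fewer cells of a type and less RNA per cell cannot be told apart.

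Of the 49 members, 25 had enough counts to be tested. In pro-lymphoid culture 6 of them were higher and 7 lower, and 12 did not pass (edgeR quasi-likelihood test, Benjamini-Hochberg adjusted p under 0.05 over 12477 genes). That is 13 of 25, where 38.6% of all tested genes passed, 17.4% being higher and 21.3% lower. For 17 of the 25 members the cultures did not overlap, against 53.5% of all tested genes. The median log2 fold change, pro-lymphoid minus pro-myeloid, was 0.24 for the members and -0.00019 for all tested genes. Among integrins, 4 α subunits rose and 4 fell of 13 tested, and 2 β subunits fell of 6 tested. Among 6 tested cadherins, 2 rose and 1 fell. Without lymphoid replicate 6, 5 members were higher and 4 lower. In that run 3086 of 12744 tested genes passed, against 4821 of 12477 with all libraries.

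**Figure D1:**
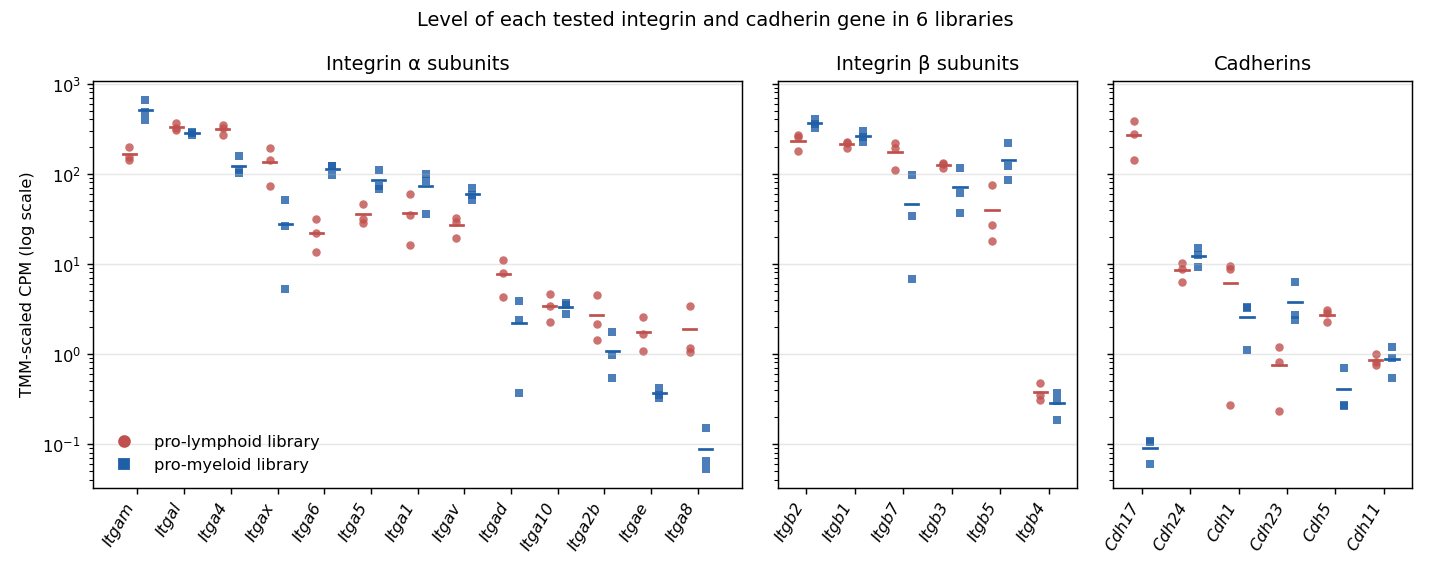
TMM-scaled CPM on a log axis (y) of the 25 tested integrin and cadherin genes (x), with 1 point per library (circles, pro-lymphoid; squares, pro-myeloid) and a bar at the mean of each group. Itgam lies at 165 against 515 CPM and Itga4 at 313 against 123 CPM, and Cdh17 at 269 against 0.0906 CPM.

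Of the 4 α subunit genes that pair with β2, Itgam was lower and Itgax higher in pro-lymphoid culture, Itgal and Itgad did not pass, and their common partner Itgb2 was 1.56-fold higher in pro-myeloid culture. The genes Itgam, Itgax and Itgad lie next to each other on the plus strand of chromosome 7 (mm10, 128062640 to 128118491, 128129568 to 128150657 and 128173946 to 128205503), and Itgal lies on the same chromosome at 127296260 to 127335137. Their promoters are shown for the neighbours that moved in opposite directions, Itgam and Itgax, and for Itga4 and Itgb7, whose products form a pair. The stretches are the 250 bases before the RefSeq start site (GRCm38.p6, the same assembly as mm10), which matched 31 of the 49 members by symbol. Capitals mark the letters GAGGAA, a core of PU.1 sites, or TGTGGT, a core of RUNX sites, on either strand, which do not overlap each other here.
Itgam, chr7:128062390-128062639, plus strand: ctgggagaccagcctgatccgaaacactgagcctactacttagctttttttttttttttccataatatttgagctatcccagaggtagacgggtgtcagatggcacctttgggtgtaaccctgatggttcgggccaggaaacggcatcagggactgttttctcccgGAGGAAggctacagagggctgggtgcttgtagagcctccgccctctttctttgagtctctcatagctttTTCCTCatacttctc
Itgax, chr7:128129300-128129549, plus strand: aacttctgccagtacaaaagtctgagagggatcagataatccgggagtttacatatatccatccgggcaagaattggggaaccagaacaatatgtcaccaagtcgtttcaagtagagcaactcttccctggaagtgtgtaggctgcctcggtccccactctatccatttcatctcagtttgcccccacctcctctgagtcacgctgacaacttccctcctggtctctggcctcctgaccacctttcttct
Itga4, chr2:79255176-79255425, plus strand: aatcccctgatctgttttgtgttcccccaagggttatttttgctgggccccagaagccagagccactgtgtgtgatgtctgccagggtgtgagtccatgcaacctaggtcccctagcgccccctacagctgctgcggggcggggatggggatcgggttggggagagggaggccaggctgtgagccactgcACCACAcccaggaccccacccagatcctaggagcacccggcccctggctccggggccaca
Itgb7, chr15:102231936-102232185, minus strand: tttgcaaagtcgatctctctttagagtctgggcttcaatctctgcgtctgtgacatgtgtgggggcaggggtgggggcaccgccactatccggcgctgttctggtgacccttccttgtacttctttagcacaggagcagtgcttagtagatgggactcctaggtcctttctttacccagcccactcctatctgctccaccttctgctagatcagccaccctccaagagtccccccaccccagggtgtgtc
The Itgam window held GAGGAA 2 times and the Itgax window did not hold it. Of 32851 promoter windows of this length, 23.3% held it. TGTGGT was found 1 time before Itga4, and 14% of all windows held it. A match describes letters only.

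Itgam encodes αM (CD11b), the subunit of the complement receptor of neutrophils and macrophages. It stood at 200, 154 and 141 CPM under pro-lymphoid and at 667, 488 and 390 CPM under pro-myeloid conditions. Every pro-myeloid library lay above every pro-lymphoid one, and the gene was 3.13-fold higher there (log2 fold change -1.64 ± 0.23, SE, edgeR adjusted p = 0.00158). Itgax encodes αX (CD11c), a subunit of dendritic cells and some macrophages. It stood at 72.7, 195 and 142 CPM under pro-lymphoid and at 5.18, 51.1 and 26.2 CPM under pro-myeloid conditions. The groups did not overlap, but both were spread, with lymphoid replicate 1 nearest to the pro-myeloid libraries. Itgax rose 4.97-fold (log2 fold change 2.32 ± 0.73, edgeR adjusted p = 0.0400). The call was lost without lymphoid replicate 5 (edgeR adjusted p = 0.104), lymphoid replicate 6 (0.0961) or myeloid replicate 4 (0.109).

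Itgad, which encodes αD, followed the same order of libraries as Itgax at a far lower level. It stood at 4.31, 11.1 and 7.87 CPM under pro-lymphoid and at 0.365, 3.88 and 2.34 CPM under pro-myeloid conditions. The groups did not overlap but the difference did not pass (log2 fold change 1.84 ± 0.64, edgeR adjusted p = 0.0571). It passed with DESeq2 (adjusted p = 0.0294), with limma-voom (0.0495), without scaling factors (edgeR adjusted p = 0.0491), and without myeloid replicate 2 (0.0493) or 3 (0.0415). Of the 50-base stretches of Itgax transcripts, 8.02% also occurred in Itgad and in no other gene, and 8.74% of those of Itgad occurred in Itgax or 1 other gene, so that reads there cannot be assigned with certainty. Exons of Itgad also overlap 69 bases of Cox6a2 and 309 bases of 4931431B13Rik on the other strand, and the counting did not use strand. Over the pro-lymphoid and pro-myeloid libraries Cox6a2 had 12365 and 15943 counts, 4931431B13Rik 10 and 2, and Itgad 921 and 253.

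Itgal encodes αL (CD11a), the subunit of LFA-1 that most leukocytes carry. Its levels were 369, 306 and 321 CPM in pro-lymphoid and 267, 292 and 283 CPM in pro-myeloid libraries. The groups were close without overlapping, and the difference did not pass (log2 fold change 0.24 ± 0.11, edgeR adjusted p = 0.136). Itgb2 encodes the β2 subunit (CD18) that all 4 need to reach the surface. It stood at 253, 267 and 178 CPM in pro-lymphoid and at 353, 409 and 325 CPM in pro-myeloid libraries. Its log2 fold change was -0.64 ± 0.18 (edgeR adjusted p = 0.0264), a call lost without lymphoid replicate 6 (0.0718) or myeloid replicate 3 (0.0729).

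Per length, the make-up of the β2 family differed more than its sum. Levels were compared between genes as TPM, counts divided by the summed exon length and scaled to the same sum in each library. The 4 α subunits summed to 257 ± 19.8 TPM under pro-lymphoid and 326 ± 70.3 TPM under pro-myeloid conditions (SD, n = 3). Itgam made up 63.5 ± 8.32% of this sum in pro-myeloid and 26.2 ± 5.22% in pro-lymphoid culture. The Itgal share was 32.0 ± 5.62% against 47.4 ± 6.12%, and the Itgax share was 4.15 ± 3.33% against 25.0 ± 10.4%. By library, the Itgax share was 13.7%, 33.9% and 27.4% under pro-lymphoid and 0.66%, 7.30% and 4.50% under pro-myeloid conditions. Myeloid replicate 2 had the highest Itgam share, at 73.1%. These shares are descriptions with no test.

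Markers of neutrophils were lower and most tested markers of dendritic cells higher in pro-lymphoid culture, while most monocyte and macrophage markers were not called. Of 9 tested neutrophil markers, 9 were lower in pro-lymphoid culture, and the 11 in the table summed to 163 to 368 CPM there against 5002 to 9428 CPM. Among defining markers, S100a8 had 3 counts against 3354. Monocyte and macrophage markers summed to 900 to 2167 against 1837 to 3226 CPM, with 1 of 9 tested markers higher, 2 lower and 6 not called, and the sums overlapped. Of 8 tested dendritic cell markers, 7 were higher and 0 lower, and the 12 in the table summed to 836 to 1858 against 402 to 730 CPM. Among them Ly6d and Cd209a had 0 counts in pro-myeloid culture. H2-Aa, which encodes an MHC class II chain, stood at 4.72, 101 and 29.2 CPM under pro-lymphoid conditions. The part of these cell types in the Itgam, Itgax and Itgad values was not tested.

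**Figure D2:**
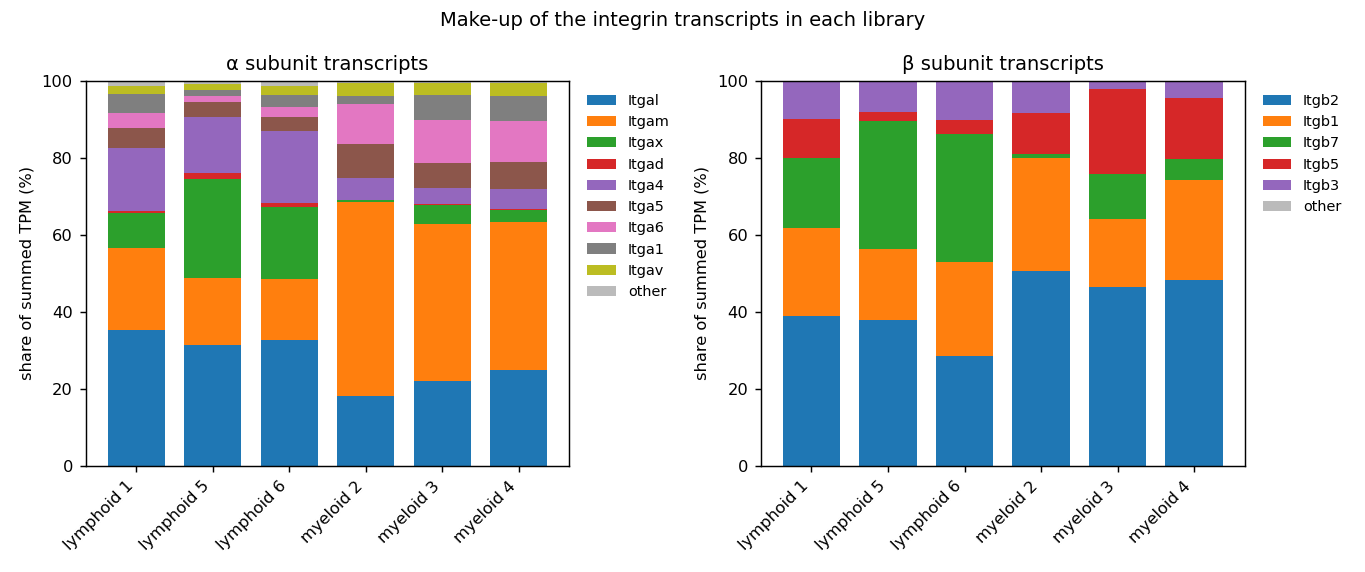
Share of summed TPM (y, percent) of each α subunit gene among all 18 (left) and each β subunit gene among all 8 (right), in stacked bars for the 6 libraries (x). Itgam makes up 43.2% of α subunit transcripts in pro-myeloid against 18.3% in pro-lymphoid culture, and Itgb7 makes up 6.09% against 28.2% of β subunit transcripts.

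The genes of the α4 and αE subunits, which pair with β7, were higher in pro-lymphoid culture. Itga4 encodes α4, which with β1 forms VLA-4. It stood at 322, 269 and 348 CPM under pro-lymphoid and at 156, 103 and 111 CPM under pro-myeloid conditions. The groups were well apart, and Itga4 rose 2.54-fold (log2 fold change 1.35 ± 0.19, edgeR adjusted p = 0.00156; mm10, chromosome 2, 79255426 to 79333114). Its exons overlap 166 bases of Cerkl on the other strand, which had 179 and 71 counts over the pro-lymphoid and pro-myeloid libraries. Itgae encodes αE (CD103), which with β7 binds E-cadherin. It was scarce, at 1.09, 2.54 and 1.65 CPM in pro-lymphoid and 0.417, 0.326 and 0.347 CPM in pro-myeloid libraries, and rose 4.84-fold (log2 fold change 2.27 ± 0.45, edgeR adjusted p = 0.00703). The 12 T and NK cell markers in the table summed to 6.08 to 7.43 CPM under pro-lymphoid conditions and 13.8 to 44.2 CPM under pro-myeloid ones. Of 3 tested, Klrb1c was higher (0.388 against 0.0880 CPM, edgeR adjusted p = 0.0284), Nkg7 lower (2.50 against 25.3 CPM, edgeR adjusted p = 0.00222) and Klrk1 not called. Cd4 had 28 against 0 counts, and Cd3e, Ncr1 and Gzma had 0 counts in all 6 libraries. The part of such cells in the Itgae value was not tested.

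Itgb7 encodes the β7 subunit. Its levels were 110, 219 and 194 CPM under pro-lymphoid and 6.82, 97.5 and 33.7 CPM under pro-myeloid conditions. The pro-myeloid libraries spread over more than 10-fold, and their highest lay just below the lowest pro-lymphoid one. The difference did not pass (log2 fold change 1.93 ± 0.79, edgeR adjusted p = 0.0911). It passed with limma-voom (adjusted p = 0.0366) and without myeloid replicate 2 (edgeR adjusted p = 0.0499) or 3 (0.0192). Itgb1 encodes β1, the partner of most α subunits. It stood at 218, 193 and 223 CPM against 300.5, 228 and 256 CPM, without a call (log2 fold change -0.31 ± 0.13, edgeR adjusted p = 0.109). Per length, Itgb7 made up 28.2 ± 8.72% of the β subunit transcripts under pro-lymphoid and 6.09 ± 5.44% under pro-myeloid conditions, while the Itgb1 share was 21.96 ± 2.95% against 24.4 ± 6.07%.

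Itga6 and Itga5 were lower in pro-lymphoid culture. Itga6 encodes α6, a laminin receptor subunit with β1 or β4. It stood at 31.0, 13.4 and 22.2 CPM under pro-lymphoid and at 121, 120.2 and 96.9 CPM under pro-myeloid conditions. It was 5.09-fold lower in pro-lymphoid culture (log2 fold change -2.35 ± 0.29, edgeR adjusted p = 0.000948; mm10, chromosome 2, 71787083 to 71856758). Itga5 encodes α5, which with β1 forms the main fibronectin receptor. It stood at 45.8, 31.6 and 28.5 against 111, 73.9 and 68.2 CPM, with no overlap, and was 2.39-fold lower (log2 fold change -1.26 ± 0.25, edgeR adjusted p = 0.00702). Itga1, which encodes a collagen receptor subunit, varied within both cultures, at 58.9, 16.0 and 34.4 against 36.0, 98.0 and 83.0 CPM. The groups overlapped and no call was made (log2 fold change -0.99 ± 0.51, edgeR adjusted p = 0.163).

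The αv subunit and its partner β5 were lower in pro-lymphoid culture, and no call was made for the alternative partner β3. Itgav, whose product binds RGD-bearing ligands such as vitronectin, stood at 32.1, 19.4 and 29.3 against 70.2, 58.2 and 51.2 CPM (edgeR adjusted p = 0.00573, log2 fold change -1.15 ± 0.22). The groups did not overlap. Itgb5 stood at 75.4, 18.0 and 26.6 CPM under pro-lymphoid and at 85.1, 222 and 122 CPM under pro-myeloid conditions. Lymphoid replicate 1 lay close to myeloid replicate 2, and the fall (log2 fold change -1.84 ± 0.57, edgeR adjusted p = 0.0394) was no longer called when lymphoid replicate 5 (0.0902), lymphoid replicate 6 (0.130), myeloid replicate 3 (0.115) or myeloid replicate 4 (0.0721) was left out. Of its 50-base stretches, 7.25% were also found in 1 other gene, and 5.31% of those of Itga6 were found in 9 other genes.

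Itgb3, which encodes the β3 subunit of platelets, osteoclasts and some progenitors, was even in pro-lymphoid culture (131, 116 and 127 CPM) and uneven in pro-myeloid culture (116, 36.4 and 60.7 CPM). Myeloid replicate 2 lay at the pro-lymphoid level. There was no call with all libraries (log2 fold change 0.81 ± 0.37, edgeR adjusted p = 0.123), and without that library the log2 fold change was 1.36 (edgeR adjusted p = 0.00332). Itga2b, the platelet α partner of β3, stood at only 2.12, 1.41 and 4.51 against 0.964, 0.533 and 1.73 CPM, without a call (edgeR adjusted p = 0.109). Per length, Itgb3 had 41.2 ± 5.44 TPM and Itga2b 1.48 ± 0.846 TPM in pro-lymphoid culture. Among platelet markers, Pf4 and Gp6 had 2 and 0 counts under pro-lymphoid conditions and 0 each under pro-myeloid ones. The 12 markers of that list summed to 35.9 to 63.3 against 154 to 203 CPM, mostly Nfe2. Only 4 of the 12 had enough counts for a test, of which 0 rose, 2 fell and 2 did not pass.

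The α8 subunit gene, known from kidney and smooth muscle, had the highest log2 fold change among tested integrins. Itga8 stood at 3.39, 1.05 and 1.16 CPM under pro-lymphoid and at 0.0521, 0.148 and 0.0650 CPM under pro-myeloid conditions. It rose from 10 counts in all to 215 (log2 fold change 4.39 ± 0.78, edgeR adjusted p = 0.00301). The 13 stromal cell markers summed to 2.20 to 19.97 CPM under pro-lymphoid conditions and 7.67 to 36.3 CPM under pro-myeloid ones, and of 4 tested, 0 were higher and 3 lower. Col1a2, Col3a1, Dcn and Lum had 0 counts in all 6 libraries. Itga10 and Itgb4 were tested at low levels with no call, at 3.41 ± 1.18 against 3.29 ± 0.470 CPM and 0.375 ± 0.0864 against 0.282 ± 0.0939 CPM (SD, n = 3). Exons of Itgb4, with 44 and 34 counts, overlap 110 bases of Galk1 on the other strand, which had 12966 and 10503 counts.

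Ordered by TPM, the leading α subunits in pro-lymphoid culture were Itgal (122 ± 21.8), Itgam (67.8 ± 18.3), Itgax (63.3 ± 25.1) and Itga4 (60.8 ± 9.84). The last 3 overlapped between libraries. In pro-myeloid culture the order was Itgam (211 ± 74.3), Itgal (102 ± 3.79), Itga6 (50.9 ± 8.61) and Itga5 (37.1 ± 13.4), where Itga6 and Itga5 overlapped. Of the β subunits, Itgb2 led in both cultures, at 156 ± 37.0 and 239 ± 25.6 TPM. It was followed by Itgb7 (122 ± 32.7 TPM) and Itgb1 (96.3 ± 12.3 TPM) in pro-lymphoid culture, where Itgb7 overlapped both Itgb2 and Itgb1, and by Itgb1 (119 ± 26.8 TPM) and Itgb5 (80.5 ± 34.5 TPM) in pro-myeloid culture. These last overlapped, and in myeloid replicate 3 Itgb5 (119 TPM) was above Itgb1 (95.8 TPM). Summed over all 18 genes, α subunits had 367 ± 42.3 against 478 ± 95.0 TPM, and β subunits 440 ± 37.3 against 493 ± 55.7 TPM, so that the sums overlapped within their spread.

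**Figure D3:**
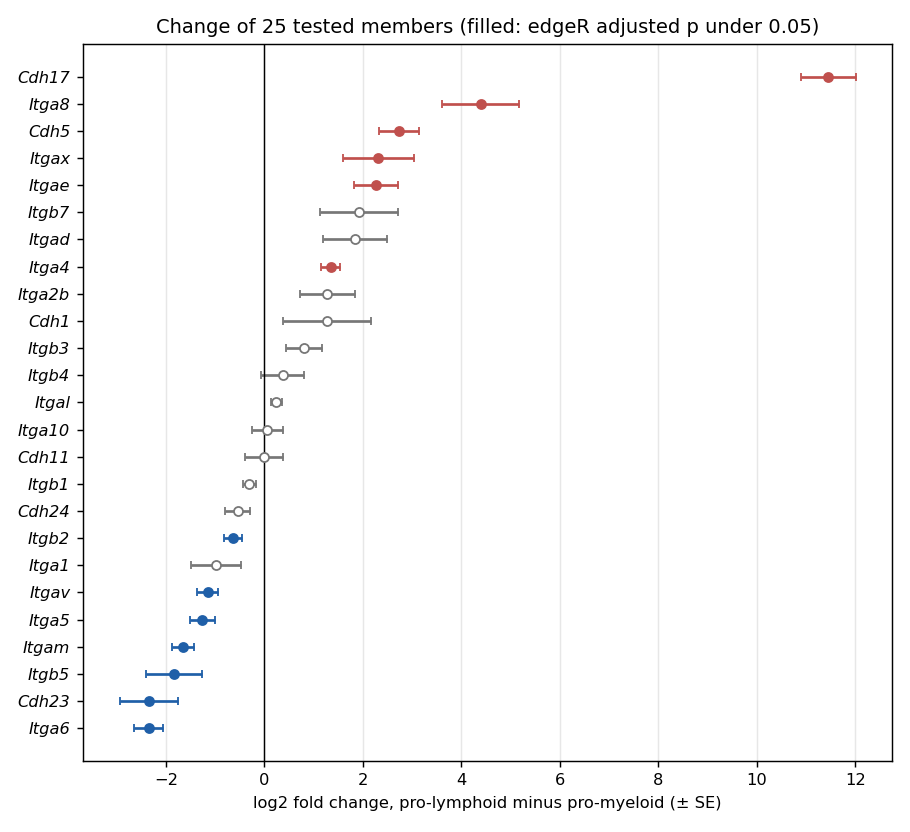
Log2 fold change, pro-lymphoid minus pro-myeloid culture (x), of the 25 tested members (y), with bars of 1 SE from the edgeR fit. Filled points passed the test and open points did not, and Cdh17 at 11.45 lies far from the next value, 4.39 for Itga8.

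One cadherin gene, Cdh17, dominated the family in pro-lymphoid culture. It encodes LI-cadherin, a cadherin of liver and intestine with a short tail that lacks the catenin-binding region, and is also known from B-lineage cells. It stood at 142, 386 and 278 CPM under pro-lymphoid and at 0.104, 0.0592 and 0.108 CPM under pro-myeloid conditions, from 31950 and 11 counts. The groups were 2966-fold apart (log2 fold change 11.45 ± 0.56, edgeR adjusted p = 4.8e-06; mm10, chromosome 4, 11758157 to 11817905). Per length, at 145 ± 58.5 TPM, its mean lay between those of Itgb7 and Itgb2, and it made up 92.6 ± 2.56% of the cadherin transcripts. The 23 cadherin genes summed to 95.1, 214 and 157 TPM under pro-lymphoid conditions and to 8.62 to 13.6 TPM under pro-myeloid ones. None of the 50-base stretches of Cdh17 transcripts was found in another gene. Of 8 epithelial markers, Krt5, Krt8, Krt14, Krt19, Cldn4 and Esrp1 had 0 counts in all libraries, Epcam had 27 against 10 and Krt18 had 0 against 26. Of 5 tested B cell markers, 0 were higher and 2 lower, and the list summed to 26.9 to 36.4 against 29.9 to 64.1 CPM.

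The other tested cadherins were scarce. Cdh5, which encodes the VE-cadherin of endothelium and of some fetal blood stem cells, stood at 2.28, 3.03 and 2.86 against 0.703, 0.266 and 0.260 CPM. It rose 6.65-fold with no overlap (log2 fold change 2.74 ± 0.40, edgeR adjusted p = 0.00210). The 9 endothelial markers summed to 232 to 306 CPM under pro-lymphoid conditions and 327 to 354 CPM under pro-myeloid ones, mostly Pecam1 (256 against 333 CPM, not called), which blood cells also express. Of 2 tested, 0 were higher and 1, Vwf, was lower (4.86 against 10.7 CPM). Tie1 had 0 against 71 counts, and Kdr, Emcn, Cldn5 and Robo4 had 0 counts in all 6 libraries. Cdh23, a cadherin of the hair cell tip link, stood at 1.19, 0.811 and 0.233 against 2.40, 6.19 and 2.71 CPM. It fell (log2 fold change -2.35 ± 0.59, edgeR adjusted p = 0.0184), a call lost without lymphoid replicate 5 (0.0530) or 6 (0.0603).

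Cdh1, which encodes E-cadherin, the ligand of αEβ7, was split within pro-lymphoid culture. It stood at 0.271, 8.68 and 9.45 CPM under pro-lymphoid and at 1.09, 3.32 and 3.25 CPM under pro-myeloid conditions. Lymphoid replicate 1 lay below all others, and there was no call (log2 fold change 1.27 ± 0.90, edgeR adjusted p = 0.298). Without that library the log2 fold change was 1.83 (edgeR adjusted p = 0.0219). Cdh24, a catenin-binding cadherin, held 76.8 ± 6.51% of the cadherin transcripts in pro-myeloid culture, at 12.3 ± 2.89 CPM against 8.42 ± 1.93 CPM in pro-lymphoid culture (SD, n = 3), without a call (edgeR adjusted p = 0.143). Cdh11 did not differ in level beyond its spread (0.859 ± 0.128 against 0.876 ± 0.328 CPM, edgeR adjusted p = 0.987).

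The remaining 24 members, 5 α subunits, 2 β subunits and 17 cadherins, had too few counts to be tested. Of these, 9 had 0 counts in all libraries: Itgb8, Cdh6, Cdh7, Cdh8, Cdh9, Cdh10, Cdh12, Cdh13 and Cdh20. Cdh22 had 0, 27 and 18 counts under pro-lymphoid conditions and 0 in the pro-myeloid libraries, at least 14-fold more, with the group total of 0 set to the floor of 3 counts. Without lymphoid replicate 1, its only pro-lymphoid library with 0 counts, it passed the filter and was called higher. This call depends on leaving out that library. With all 6 libraries and no filter on low counts, Cdh22 did not pass (edgeR adjusted p = 0.0776). In the run without lymphoid replicate 1, 5 cadherins were called instead of 3, with Cdh22 and Cdh1 added. Itga9 had 12 against 0 counts, at least 3-fold more. Cdh15 had 0 against 9 counts. Itga2, Itga3, Itga7, Itga11, Itgb6, Cdh2, Cdh3, Cdh4, Cdh16, Cdh18, Cdh19 and Cdh26 had 1 to 7 counts in their highest library.

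Of the catenin genes, Ctnnb1 and Ctnna1 were not called, Ctnnd1 was lower and Ctnnd2 was higher in pro-lymphoid culture. Of 17 tested cadherin partner genes, 4 were higher, 4 lower and 9 not called, with a median log2 fold change of -0.14. Over all tested genes, 17.4% were higher and 21.3% lower. The β-catenin gene Ctnnb1 (413 and 478 CPM, edgeR adjusted p = 0.252) and the α-catenin gene Ctnna1 (118 and 130 CPM, 0.404) were abundant without a call. Ctnnd1 encodes p120-catenin, which keeps classical cadherins at the surface. It stood at 0.597, 21.5 and 9.35 against 129, 49.95 and 65.6 CPM (edgeR adjusted p = 0.0366, log2 fold change -2.96 ± 0.90), and the call was lost without lymphoid replicate 6 (0.121) or any of myeloid replicates 2 (0.0609), 3 (0.0506) and 4 (0.0680). Its relative Ctnnd2, named after its values were seen, stood at 0.922, 26.5 and 7.40 CPM against 0 in every pro-myeloid library, at least 457-fold higher (edgeR adjusted p = 0.0268).

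The desmosome gene Dsp was lower in pro-lymphoid culture, while Jup, Pkp2 and Pkp3 were not called. Apart from these, Mllt4 was lower and Pkp4 higher. Dsp, which encodes desmoplakin, the link of desmosomes to intermediate filaments, stood at 2.33, 12.4 and 10.47 against 325, 207 and 211 CPM (edgeR adjusted p = 0.000747, log2 fold change -4.88 ± 0.57). Lymphoid replicate 1 was again the lowest library. Of the other desmosome plaque genes, Jup (edgeR adjusted p = 0.501), Pkp2 (0.178) and Pkp3 (0.105) were not called and Pkp1 had 0 counts. None of the 9 desmosomal cadherin genes of the lists, Dsg1a to Dsg4 and Dsc1 to Dsc3, had enough counts to be tested. Mllt4, which encodes the junction protein afadin, stood at 0.582 against 7.07 CPM (edgeR adjusted p = 0.00143). Adam10, a protease that sheds cadherins, stood at 169 against 419 CPM (edgeR adjusted p = 0.000895). Pkp4, a p120 relative, rose from 5.97 to 37.4 CPM (edgeR adjusted p = 0.00180).

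**Figure D4:**
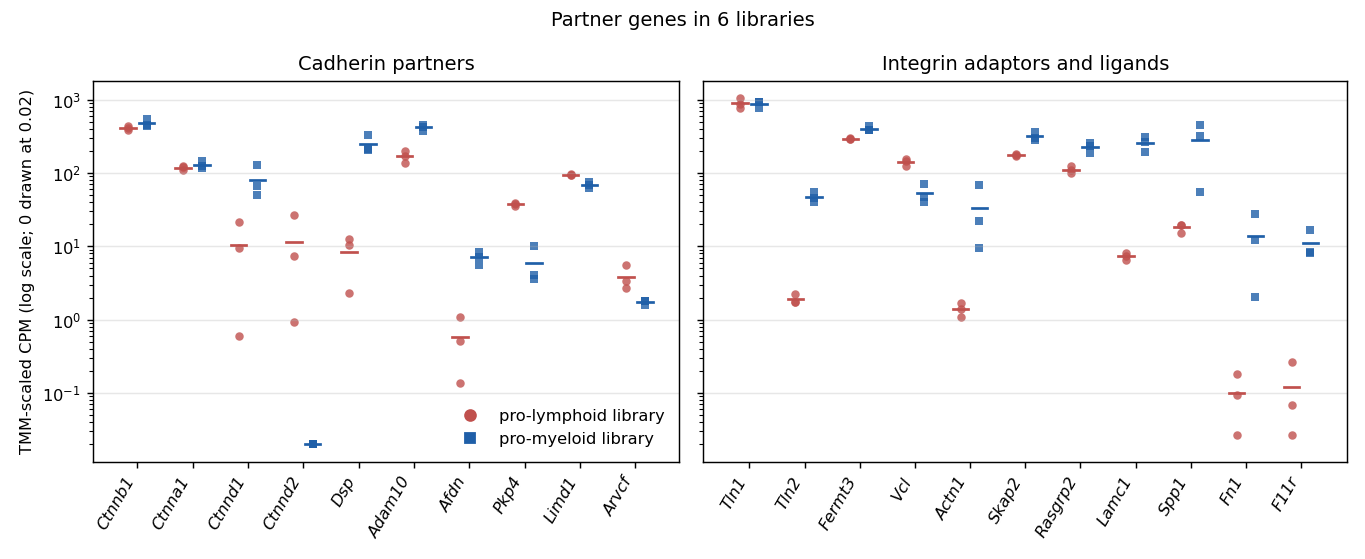
TMM-scaled CPM on a log axis (y) of cadherin partner genes (left) and of integrin adaptor and ligand genes (right) with circles for the 3 libraries of pro-lymphoid and squares for the 3 of pro-myeloid culture, a bar at each mean, and 0 drawn at 0.02. Dsp lies at 8.41 against 248 CPM and Tln2 at 1.91 against 47.0 CPM, while Ctnnb1 and Tln1 lie close together.

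Genes of integrin activation and adhesion complexes moved in both directions, as did tested genes in general. Of 38 tested genes of integrin activation and adhesion complexes, 6 were higher, 11 lower and 21 not called (median log2 fold change -0.20). The shares over all tested genes were 17.4% higher and 21.3% lower. Tln1, the main talin gene of blood cells, was abundant with no call (897 against 876 CPM, edgeR adjusted p = 0.886), and Fermt3, the kindlin of blood cells, fell by 0.46 ± 0.11 on the log2 scale (SE, edgeR adjusted p = 0.0128), a call lost without lymphoid replicate 5 (0.0569) or 6 (0.0560). The second talin gene, Tln2, stood at 2.22, 1.75 and 1.75 against 46.1, 54.6 and 40.2 CPM (edgeR adjusted p = 8.67e-06, log2 fold change -4.62 ± 0.21). Vcl, which encodes vinculin, was higher, at 142 against 52.8 CPM (edgeR adjusted p = 0.00264, log2 fold change 1.43 ± 0.22). Rasgrp2, an activator of Rap GTPases, and Skap2, an adaptor of β2 integrins, fell by 1.02 ± 0.15 and 0.85 ± 0.12 on that scale.

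Of 15 tested genes for membrane proteins that associate with integrins, 0 were higher, 7 lower and 8 not called (median log2 fold change -0.64). Among all tested genes, 17.4% were higher and 21.3% lower. Cd36, a scavenger receptor gene that the filter on low counts left untested, had 7, 175 and 3 counts under pro-lymphoid conditions and 0 in every pro-myeloid library. That is at least 63-fold more, resting mostly on lymphoid replicate 5. Cd63, a tetraspanin of granules and lysosomes, stood at 0.0543, 1.02 and 1.28 against 36.9, 39.4 and 72.5 CPM (edgeR adjusted p = 0.000438). Plaur, the urokinase receptor gene, fell by 2.70 ± 0.36, Cd53 by 1.84 ± 0.29 and Cd47 by 0.88 ± 0.12 on the log2 scale.

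Genes of integrin ligands in matrix and plasma were mostly lower in pro-lymphoid culture. Which cells in the cultures held these transcripts was not tested. Of 13 tested matrix and plasma ligand genes, 1 was higher, 9 lower and 3 not called (median log2 fold change -3.94). For all tested genes the shares were 17.4% higher and 21.3% lower. Lamc1, a laminin chain gene and so a ligand gene of α6 integrins, stood at 6.59, 7.35 and 8.12 against 313, 261 and 196 CPM (edgeR adjusted p = 6.37e-06, log2 fold change -5.12 ± 0.22). Col4a2 stood at 0.299 against 7.96 CPM (edgeR adjusted p = 0.00171), Col4a1 had 2 against 367 counts, and Mfge8, a ligand of αv integrins, rose from 15.0 to 31.7 CPM (edgeR adjusted p = 0.00290). Outside the rule for named genes, and chosen after their values were seen, Fn1 stood at 0.101 against 13.99 CPM and Spp1 at 18.1 against 278 CPM (edgeR adjusted p = 0.00310 and 0.00451).

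Of 8 tested ligand genes on cell surfaces, 1 was higher, 3 lower and 4 not called (median log2 fold change -0.43). Over all tested genes, 17.4% were higher and 21.3% lower. F11r, which encodes a junctional adhesion molecule bound by αLβ2, stood at 0.0271, 0.262 and 0.0698 against 16.9, 8.50 and 8.02 CPM (edgeR adjusted p = 0.000223). Jam2 fell by 2.67 ± 0.59 on the log2 scale. Thy1 had 1 count against 802 in pro-myeloid culture, where its libraries stood at 16.7, 0.740 and 2.95 CPM. The call (edgeR adjusted p = 0.0176) did not hold without lymphoid replicate 6 (0.0775). Icam5 rose by 1.54 ± 0.47 on that scale (edgeR adjusted p = 0.0354), and did not pass when lymphoid replicate 1 (0.0906), lymphoid replicate 6 (0.0706), myeloid replicate 3 (0.0975) or myeloid replicate 4 (0.127) was left out. Icam1 and Icam2, the β2 integrin ligands of blood and vessel cells, were named after their values were seen and stood at 68.4 against 55.7 and 42.6 against 35.2 CPM, neither of them called (edgeR adjusted p = 0.282 and 0.205). Vcam1, the vascular ligand of α4 integrins, had 0 and 4 counts.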

How the data were processed

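Per the file headers, the authors counted reads with featureCounts 1.5.1 over UCSC mm10 gene exons, with primary alignments and without strand, and deposited raw counts for 23337 genes. The submitters' processing notes also name Bowtie, DESeq2, TopHat and Trimmomatic, with settings not given in the sources used here. Per the labels' protocols, poly(A)-selected RNA was sequenced as single-end reads.

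Groups came from the sample titles. The tests used edgeR 4.0.16 under R 4.3.3: low counts were removed by filterByExpr, TMM factors computed and a quasi-likelihood F test made, with Benjamini-Hochberg adjustment at 0.05 over 12477 genes. The SE was derived from the F statistic. At these depths 3 counts in 1 library are 0.0650 to 0.0888 CPM. Floors cover counting error only, as PCR copies are not separate molecules. All library pairs differed by more than sampling noise (the lowest chi-square divided by its degrees of freedom was 39.8). The test was also run on simulated counts with the same dispersion for every gene. That check does not cover genes whose libraries spread widely within a group.

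Alternatives were other scalings and filters, DESeq2 1.42.0, limma-voom (limma 3.58.1), a minimum absolute log2 fold change of 1, and each library left out. The members and gene lists were chosen with earlier results of these data known. Values, fold change and test are given for members that passed or had at least 5 CPM in a group, and for partner lists up to 4 tested genes with the smallest adjusted p plus Ctnnb1, Ctnna1, Ctnnd1, Tln1 and Fermt3. Of the list symbols, 4 were found under an older name and 4 had no match. Promoter sequences are from RefSeq (GRCm38.p6), and transcript stretches from GENCODE M21.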

Additional observations from a re-analysis of the deposited data

How the results depend on the processing

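Of the 25 tested members, 9 that passed and 6 that did not kept their direction and side of the threshold under every alternative that tested them. With all 6 libraries, 4421 to 5432 genes passed under other scalings, filters and tools, and 2620 with a minimum absolute log2 fold change of 1. Leaving out 1 library gave 3086 to 5385 genes passing, 9 to 16 members, 4 to 7 lower members and 5 to 9 higher members, and 36 to 62 partner genes against 56 with all libraries. The fewest genes and partner genes passed without lymphoid replicate 6, and the most without myeloid replicate 2. With the minimum log2 fold change, 40 partner genes passed. The log2 fold change of Cdh11 (-0.0087) turned positive with upper-quartile scaling (0.041), no scaling factors (0.034) and limma-voom (0.053), and with 1 library left out it ran from -0.30 to 0.30. With 1 library left out, that of Itga10 ran from -0.21 to 0.29, and that of Tln1 from -0.086 to 0.13. The cause was not tested. With a filter of 1 CPM, Cdh11 and Itgb4 were not tested. No paired analysis was made, since the replicate numbers do not repeat and the labels do not say whether any cultures shared starting cells. For members under 1 CPM, depth limits the comparison.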

Other observations

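Other genes of the cadherin superfamily were mostly at or near 0. Of 37 in the table, 9 were tested, with 1 higher, 5 lower and 3 not called in pro-lymphoid culture. Among all tested genes, 17.4% were higher and 21.3% lower. Celsr3, which encodes an atypical cadherin with a receptor-like membrane domain, was lower (0.382 against 10.46 CPM, edgeR adjusted p = 6.92e-05). Pcdh7, a protocadherin gene, had 0 pro-lymphoid and 1279 pro-myeloid counts, at least 424-fold lower (edgeR adjusted p = 0.00546). Clstn3 fell by 2.72 ± 0.45 on the log2 scale, and the calsyntenin gene Clstn1 rose from 18.6 to 62.7 CPM (edgeR adjusted p = 0.00480).

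Transcription factor genes known as repressors of Cdh1 moved both ways. Of 5 tested, 2 were higher, 2 lower and 1 not called, where 17.4% of all tested genes were higher and 21.3% lower. Tcf3, which encodes E2A, rose from 104 to 270.5 CPM (edgeR adjusted p = 0.000243). Zeb2 and Tcf4 fell by 0.75 ± 0.18 and 0.62 ± 0.15 on the log2 scale, and neither passed without lymphoid replicate 6 (edgeR adjusted p = 0.0559 and 0.0725). Snai3 was higher, at 0.957 against 0.179 CPM (edgeR adjusted p = 0.0303), but did not pass when any of lymphoid replicates 5 and 6 and myeloid replicates 2 and 3 was left out.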
